A study of Mus musculus with 8 samples.

Results

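Matrix metalloproteinases (MMPs) and the tissue inhibitors of metalloproteinases (TIMPs) were followed across 4 groups of mouse pluripotent samples by 9 genes: Mmp2, Mmp3, Mmp9, Mmp10, Mmp13, Mmp14, Timp1, Timp2 and Timp3. The symbols were listed by hand and chosen by their levels in FGF-ESC relative to the other groups, which were already known. Each was read from the array's probe sets that carry that symbol alone, which gave 1 probe set for each of the 9, of 22180 genes in all. All 9 also passed the filter on low values, but Mmp3, Mmp10 and Mmp13 did so only through the FGF-ESC arrays. Differences of FGF-ESC from other groups are therefore given for the 9 genes as a description, with no p-value, and counts past the call threshold there support nothing. Contrasts among EpiSC, ESC and ICM were tested, and for Mmp3, Mmp10 and Mmp13 they are given as values alone. The standard errors (SEs) of these contrasts pool the spread of all 4 groups, FGF-ESC included.

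All samples were wild-type C57BL/6J, with 2 Affymetrix Mouse Gene 2.1 arrays per group. FGF-ESC are lines kept in KODMEM with 20% KSR, a serum replacement, and FGF2 on MEF, the embryonic fibroblasts used as feeder cells. EpiSC, the primed epiblast type of stem cell, had the same kind of medium and also grew on MEF. ESC, the naive type, were kept without feeders in DMEM supplemented with LIF plus paired kinase inhibitors, and the sample labels add 15% FCS. ICM is the inner cell mass of day 3.5 blastocysts, isolated by immunosurgery and never cultured. The labels trace every line, EpiSC included, to day 3.5 embryos, and do not say whether the 2 arrays of a group are separate lines, cultures or embryo pools. ESC differ from FGF-ESC and EpiSC in medium, feeders and cell state at once, and ICM RNA was extracted with another kit, so these cannot be told apart.

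MMPs are zinc-dependent proteases, most of them secreted, that cut collagens, gelatin, proteoglycans and other matrix proteins. They are made as inactive precursors, and the propeptide is removed by plasmin, furin or another MMP. TIMPs bind the catalytic site and block it. Timp2 also has a part in activation, since a complex of Mmp14 and Timp2 at the cell surface holds the Mmp2 precursor for cleavage. Fibroblasts are a classic source of many of these proteins, and in embryos they act in implantation and tissue remodelling.

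Values are log2 intensities as deposited. A difference of 1 is a 2-fold change, and 4.24, the median of all deposited values, serves as the mark of near-background signal. A gene was called when limma's adjusted p was below 0.05 and the log2 fold change was at least 1. Levels of different genes are not compared, because each probe set has its own brightness. In FGF-ESC the 2 arrays differed more than in any other group: 395 of 13597 tested genes were at least 1 apart, against 20 in EpiSC, 0 in ESC and 80 in ICM.

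Each of the 9 genes had its highest level in FGF-ESC. On both FGF-ESC arrays all 9 lay above the 6 other arrays, which held for 8.58% of all tested genes. Against ESC, 8 of 9 were called higher and 0 lower, beside 5.27% of all genes called higher and 0.934% lower. Against EpiSC it was 6 of 9 higher and 0 lower, beside 5.26% and 2.02%, and against ICM 8 of 9 and 0, beside 9.57% and 5.22%. These counts describe the choice of the genes and carry no evidence of their own, and the 3 contrasts share the same FGF-ESC arrays. The median log2 fold change was 3.10 against ESC, 3.09 against EpiSC and 4.23 against ICM, while the median over all tested genes was -0.056, -0.038 and -0.024.

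Fibroblast markers moved with these genes. The summed level of 26 such markers was 214.3 and 182 in FGF-ESC, 125.6 and 132.1 in EpiSC, 111.6 and 112.2 in ESC, and 111.8 and 116.8 in ICM. Of the 26, 24 were above 4.24 on both FGF-ESC arrays, 18 on both EpiSC arrays, 12 on both ESC arrays and 14 on both ICM arrays. On these bulk arrays a change in the number of cells of a type and a change in RNA per cell cannot be told apart, and the markers' part in the MMP and TIMP levels was not tested. The 9 macrophage markers summed to 37 and 37 in FGF-ESC, 34.8 and 36.2 in EpiSC, 37.8 and 37.1 in ESC, and 34.8 and 36.5 in ICM. Ptprc, which marks blood cells, was at 2.88 to 3.22 on all 8 arrays. Cd68, also a macrophage marker, was not flat, with means of 6.03 in FGF-ESC, 5.02 in EpiSC, 7.05 in ESC and 5.23 in ICM. In FGF-ESC, Cd68 was called against ESC, at -1.02 ± 0.25, and against EpiSC, at 1.01 ± 0.25. It was also called in EpiSC against ESC, at -2.03 ± 0.25, and in ESC against ICM, at 1.82 ± 0.25. The 7 endothelial markers summed to between 24.2 and 26.1 on all 8 arrays. The 15 pluripotency markers summed to 111.6 and 115.5 in FGF-ESC, 94.8 and 97.1 in EpiSC, 121.9 and 120.8 in ESC, and 113.3 and 114.3 in ICM, so replicate 1 was the lower FGF-ESC array. Of these 15, 3 were called lower and 0 higher in FGF-ESC against ESC, beside 0.934% and 5.27% of all tested genes. The 9 trophectoderm markers summed to 42.7 and 41.6 in FGF-ESC, 43.3 and 44.8 in EpiSC, 44.8 and 44.5 in ESC, and 51.5 and 51.7 in ICM. The 8 primitive endoderm markers summed to 35.9 and 35.1 in FGF-ESC, 36.3 and 37.2 in EpiSC, 32.5 and 33.1 in ESC, and 43.5 and 44.6 in ICM, so both embryonic lists were highest in ICM.

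**Figure D1:**
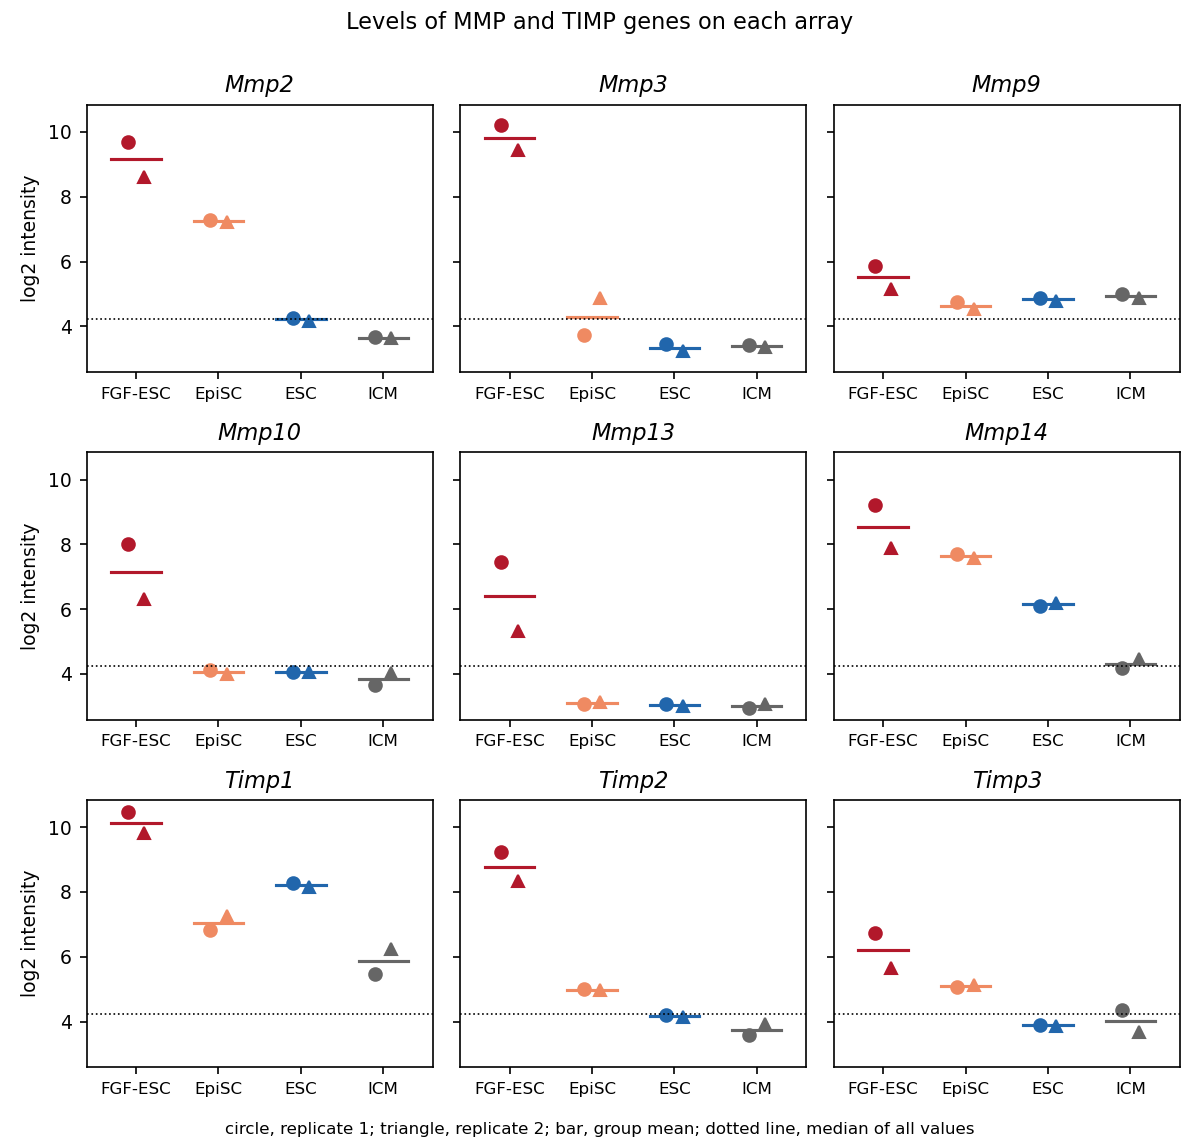
Log2 intensity of the 9 genes on every array, with groups on the horizontal axis, replicate 1 as a circle, replicate 2 as a triangle and the group mean as a bar. The dotted line is the median of all values, 4.24. The FGF-ESC arrays lie above the 6 other arrays in every panel, and EpiSC, ESC and ICM fall in different orders from gene to gene.

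The gelatinases Mmp2 and Mmp9, which cut denatured collagen and basement membrane collagen, had unlike patterns. Mmp2 (probe set 17503825, chromosome 8) was at 9.70 and 8.62 in FGF-ESC, 7.29 and 7.22 in EpiSC, 4.27 and 4.16 in ESC, and 3.66 and 3.64 in ICM. The groups formed 4 steps with no overlap between arrays, and ESC and ICM were both near or under 4.24. The mean in FGF-ESC exceeded that in EpiSC by 1.91 ± 0.29 (SE, n = 2 arrays per group, as for all SEs), that in ESC by 4.95 ± 0.29 and that in ICM by 5.51 ± 0.29. Mmp9 (17379606, chromosome 2) was at 5.87 and 5.15 in FGF-ESC, 4.74 and 4.54 in EpiSC, 4.88 and 4.78 in ESC, and 5.01 and 4.86 in ICM. It was the member with the smallest differences, 0.87 ± 0.22 above EpiSC, 0.68 ± 0.22 above ESC and 0.58 ± 0.22 above ICM. The gap between the FGF-ESC arrays themselves was 0.72. ESC and ICM overlapped for Mmp9.

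Mmp14, the membrane-anchored MMP that activates the Mmp2 precursor, was measured in all cultured groups (17300279, chromosome 14). It was at 9.20 and 7.88 in FGF-ESC, 7.70 and 7.58 in EpiSC, 6.11 and 6.20 in ESC, and 4.17 and 4.45 in ICM. FGF-ESC replicate 2 was close to the EpiSC arrays. The mean difference of 0.90 ± 0.35 between FGF-ESC and EpiSC was smaller than the gap of 1.32 between the FGF-ESC arrays. FGF-ESC exceeded ESC by 2.39 ± 0.35 and ICM by 4.23 ± 0.35.

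The stromelysins Mmp3 and Mmp10, which cut proteoglycans and activate other MMPs, and Mmp13, the main collagenase of mouse connective tissue, were near or under background outside FGF-ESC. Mmp3 (17514515) was at 10.21 and 9.44 in FGF-ESC, 3.73 and 4.87 in EpiSC, 3.44 and 3.23 in ESC, and 3.41 and 3.35 in ICM. EpiSC replicate 2 was the only array outside FGF-ESC on which Mmp3 exceeded 4.24, and ICM and ESC overlapped. FGF-ESC exceeded EpiSC by 5.52 ± 0.36, ESC by 6.49 ± 0.36 and ICM by 6.44 ± 0.36, where the ESC and ICM arrays were all near background. Mmp10 (17514541) was at 8.0 and 6.32 in FGF-ESC, 4.11 and 4.01 in EpiSC, 4.07 and 4.05 in ESC, and 3.65 and 4.02 in ICM. Mmp13 (17514482) was at 7.46 and 5.33 in FGF-ESC, 3.08 and 3.14 in EpiSC, 3.07 and 3.01 in ESC, and 2.96 and 3.08 in ICM. The 6 arrays outside FGF-ESC were thus all under 4.24 for both genes, so these differences are against near-background signal. The differences from EpiSC, ESC and ICM were 3.10, 3.10 and 3.32 (SE 0.44 for each) for Mmp10, and 3.28, 3.35 and 3.38 (SE 0.54 for each) for Mmp13. The 2 FGF-ESC arrays were 1.68 apart for Mmp10 and 2.14 apart for Mmp13, the widest gaps among the 9 genes.

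Mmp3, Mmp10 and Mmp13 lie on mouse chromosome 9 in a run of 10 neighbouring MMP genes with no other protein-coding gene between them in the RefSeq annotation. They also share promoter letters that the choice of genes did not use. As neighbours of the same gene family they are not independent examples, so shares over all promoters are given as a description. The 150 bases before the annotated start of these 3 genes are shown with Mmp14, another member, for contrast. They are from RefSeq on GRCm38.p6, plus strand, 5′ to 3′. Capitals mark TGAGTCA, the letters bound by AP-1 (Fos and Jun proteins), on either strand (TGACTCA in the other reading). They also mark TATAAA, the letters of a TATA box.
Mmp3, chr9:7445672-7445821: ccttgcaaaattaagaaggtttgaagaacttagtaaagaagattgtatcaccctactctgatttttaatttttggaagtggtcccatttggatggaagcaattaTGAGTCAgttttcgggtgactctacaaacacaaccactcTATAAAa
Mmp10, chr9:7502192-7502341: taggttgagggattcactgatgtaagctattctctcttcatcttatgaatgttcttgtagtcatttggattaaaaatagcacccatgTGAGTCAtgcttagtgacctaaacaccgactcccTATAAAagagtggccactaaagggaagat
Mmp13, chr9:7272364-7272513: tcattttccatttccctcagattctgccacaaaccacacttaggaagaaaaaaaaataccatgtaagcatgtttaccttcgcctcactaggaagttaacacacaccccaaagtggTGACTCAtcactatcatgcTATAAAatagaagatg
Mmp14, chr14:54431448-54431597: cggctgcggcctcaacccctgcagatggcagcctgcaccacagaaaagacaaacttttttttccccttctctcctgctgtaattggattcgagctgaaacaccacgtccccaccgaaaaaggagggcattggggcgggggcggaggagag

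In the 250 bases before the start, searched on both strands, 7 of the 9 genes had a sequence in the table, and Mmp2 and Mmp9 were not matched. TGAGTCA and TATAAA were found together in Mmp3, Mmp10 and Mmp13 and in 0 of the other 4, Mmp14, Timp1, Timp2 and Timp3. Among 32851 promoters of the same length, 4.46% held TGAGTCA, 12.4% held TATAAA and 0.721% held both. AGGAAG, a core bound by ETS factors, was found in 5 of the 7, in all but Mmp10 and Timp2, against 29.5% of all promoters. No AGGAAG overlapped another of these motifs in the members. The first base of TGAGTCA stood 46, 63 and 35 bases before the start in Mmp3, Mmp10 and Mmp13. That of TATAAA stood at unlike distances, 7, 29 and 16 bases before the start in the same order. The pair of motifs was not limited to the members within the gene run: of the 7 neighbours that are not members, Mmp1a, Mmp1b and Mmp7 also held both. Mmp1a was at 2.08 to 2.54 and Mmp7 at 3.86 to 4.26 over the 8 arrays. Mmp1b was at 3.72 and 2.74 in FGF-ESC and at 2.27 to 2.63 elsewhere. All of these values are near or under background, and a link of the motifs to the levels was not tested. A match gives letters only, and binding was not measured.

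Levels along the gene run were uneven. In chromosomal order the genes were Mmp13, Mmp12, Mmp1b, Mmp3, Mmp1a, Mmp10, Mmp8, Mmp27, Mmp20 and Mmp7. The 7 that are not members had values of 2.08 to 5.05 over all arrays. Mmp12, the macrophage elastase, was at 5.05 and 4.45 in FGF-ESC, 3.72 and 3.83 in EpiSC, 3.73 and 3.74 in ESC, and 4.06 and 4.31 in ICM. Mmp1b, between Mmp12 and Mmp3, was at 3.72 and 2.74 in FGF-ESC and at 2.27 to 2.63 elsewhere, all under 4.24. Mmp8, Mmp27, Mmp20 and Mmp7, which follow Mmp10, differed by -0.04, 0.12, 0.05 and -0.26 between FGF-ESC and ESC. Genes that were high in FGF-ESC thus stood beside genes near background. Mmp1a and Mmp1b are close copies of each other, so signal between them is uncertain.

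**Figure D2:**
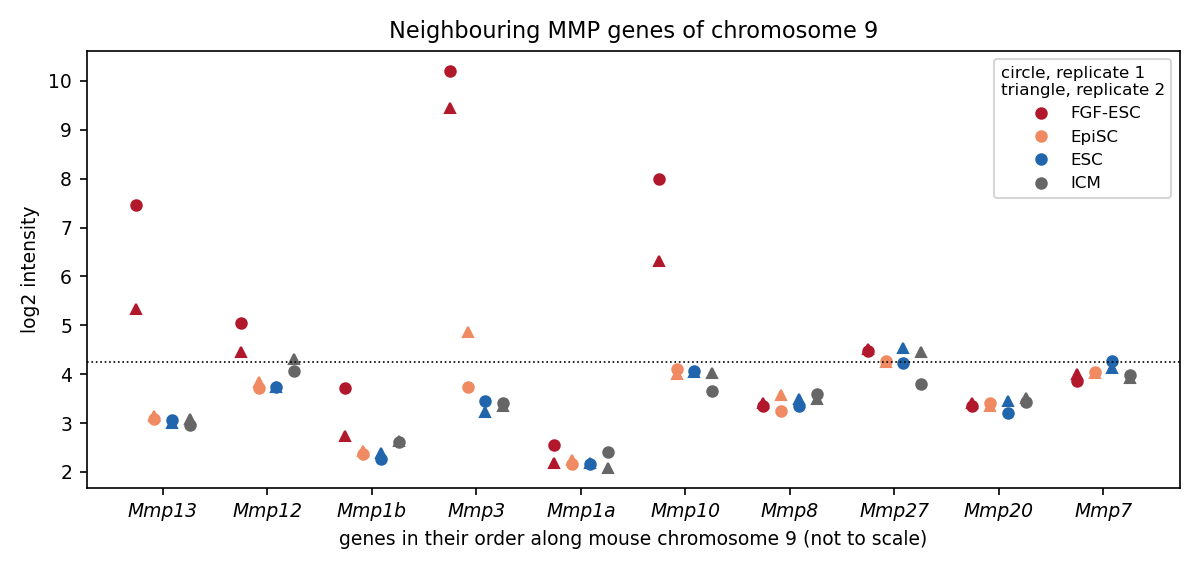
Log2 intensity of the 10 neighbouring MMP genes of mouse chromosome 9, in their order along the chromosome and not to scale, with 1 point per array and colours for the 4 groups. The dotted line is 4.24. Mmp13, Mmp3 and Mmp10 stand out on the FGF-ESC arrays, and the 7 other genes stay between 2.08 and 5.05.

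The 3 inhibitors differed in which group came next after FGF-ESC. Timp1 (17533713, chromosome X), a secreted inhibitor that also acts as a growth factor, was at 10.46 and 9.82 in FGF-ESC, 6.83 and 7.26 in EpiSC, 8.27 and 8.15 in ESC, and 5.48 and 6.24 in ICM. It was above 4.24 on all 8 arrays, and ESC, grown without feeders, held the next highest level. FGF-ESC exceeded EpiSC by 3.09 ± 0.29, ESC by 1.93 ± 0.29 and ICM by 4.28 ± 0.29. Timp2 (17272770, chromosome 11), the partner of Mmp14 in Mmp2 activation, was at 9.24 and 8.33 in FGF-ESC, 4.99 and 4.97 in EpiSC, 4.19 and 4.13 in ESC, and 3.58 and 3.92 in ICM. Outside the FGF-ESC arrays only EpiSC exceeded 4.24. Its differences were 3.8 ± 0.26 from EpiSC, 4.62 ± 0.26 from ESC and 5.03 ± 0.26 from ICM. Timp3 (17236182, chromosome 10), the inhibitor that stays bound to the matrix, was at 6.73 and 5.66 in FGF-ESC, 5.08 and 5.13 in EpiSC, 3.89 and 3.87 in ESC, and 4.36 and 3.67 in ICM. FGF-ESC replicate 2 was 0.55 above the EpiSC mean, and ICM and ESC overlapped. FGF-ESC exceeded EpiSC by 1.08 ± 0.33, ESC by 2.31 ± 0.33 and ICM by 2.18 ± 0.33.

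The FGF-ESC arrays differed in the same direction for the whole set. Replicate 1 exceeded replicate 2 for 9 of 9 genes, by 0.65 for Timp1 to 2.14 for Mmp13, with a median of 1.07. Fibroblast markers did so for 26 of 26, by 0.49 to 2.72, with a median of 1.19. Over all tested genes the median was -0.02, and 46.6% were higher on replicate 1. Without FGF-ESC replicate 1 the members' median difference was 2.26 from ESC, 2.21 from EpiSC and 3.57 from ICM, and the fibroblast medians were 2.30, 1.80 and 2.23. With both arrays the fibroblast medians were 3.04, 2.88 and 3.20.

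**Figure D3:**
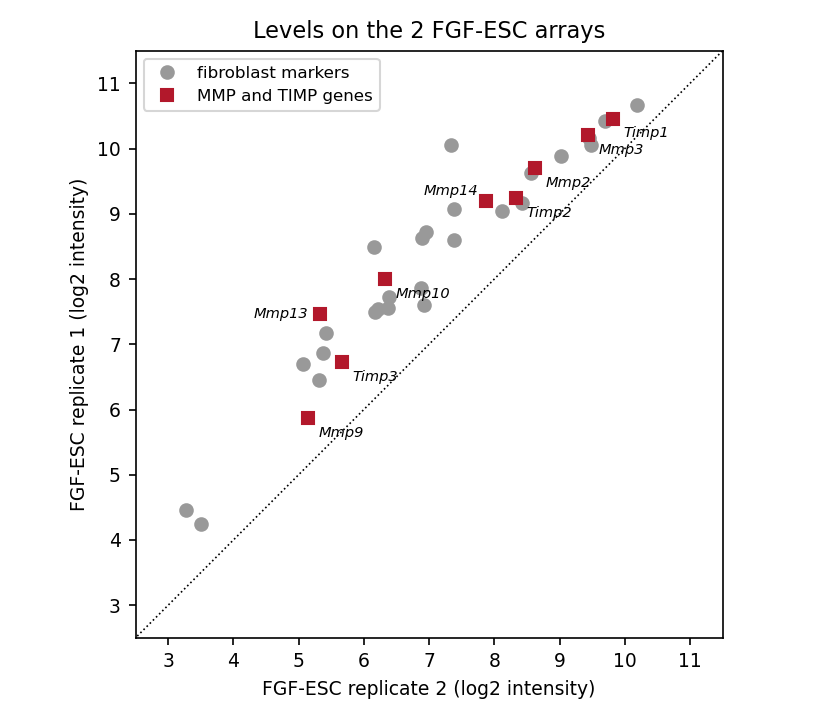
Log2 intensity on FGF-ESC replicate 1 (vertical) against replicate 2 (horizontal) for the 9 MMP and TIMP genes (red squares) and 26 fibroblast markers (grey circles). The dotted line marks equal levels. All 9 genes and all 26 markers lie above it.

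EpiSC and ESC differ in cell state, medium and feeders at once, so their contrast cannot be assigned to the primed and naive states. In EpiSC against ESC the 9 genes had 3 rises and 1 fall. Mmp2 rose by 3.04 ± 0.29 (limma adjusted p = 0.000241), to 7.25 in EpiSC against 4.21 in ESC. Mmp14 rose by 1.49 ± 0.35 (adjusted p = 0.0202) and Timp3 by 1.23 ± 0.33 (adjusted p = 0.0349), while Timp1 was lower, at -1.16 ± 0.29 on the log2 scale (adjusted p = 0.0253). Mmp2 and its activator Mmp14 were thus both higher in EpiSC. Over all tested genes 3.86% were called higher and 3.5% lower, and the members' median was 0.82 against -0.005 for all genes. Timp2, at 0.82 ± 0.26 (adjusted p = 0.0641), and Mmp9, at -0.19 ± 0.22 (adjusted p = 0.632), were not called. Mmp3 differed by 0.96 ± 0.36, by 0.39 without EpiSC replicate 2 and by 1.53 without EpiSC replicate 1, so its value rests on EpiSC replicate 2. Mmp10 and Mmp13 were under 4.24 in both groups.

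The call of Mmp2 held under all 20 alternatives. Fewer members were called when any ESC or EpiSC array was left out. The calls of Mmp14, Timp1 and Timp3 were lost when any 1 of the 4 EpiSC and ESC arrays was left out, with adjusted p of 0.0890 to 0.127 for Mmp14, 0.0564 to 0.171 for Timp1 and 0.143 to 0.163 for Timp3. Over all alternatives their adjusted p had ranges of 5.34e-05 to 1, 0.00111 to 1 and 9e-05 to 1. The upper ends came from a test against a 2-fold change, under which the calls of Mmp14, Timp1 and Timp3 were also lost. The fold changes changed little: 1.43 to 1.55 for Mmp14, -1.38 to -0.95 for Timp1 and 1.20 to 1.26 for Timp3. The SEs behind these p-values pool all 4 groups. The standard deviation of Mmp14 was 0.932 in FGF-ESC, 0.0852 in EpiSC and 0.0635 in ESC, and that of Timp3 was 0.757, 0.0375 and 0.00875. For Mmp14 and Timp3 the lost calls thus do not show disagreement within EpiSC or within ESC. EpiSC grew on feeders and ESC did not, and the summed fibroblast level was 125.6 and 132.1 in EpiSC against 111.6 and 112.2 in ESC. Of 24 tested fibroblast markers 5 rose, beside 3.86% of all tested genes, led by the collagen chain Col1a2 at 3.43 ± 0.23 (limma adjusted p = 4.96e-05). That count was 1 without ESC replicate 1, ESC replicate 2 or EpiSC replicate 2. The part of these markers in the MMP and TIMP levels was not tested.

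Against ICM, EpiSC had 5 of the 9 genes higher and 0 lower, beside 8.48% of all tested genes called higher and 6.8% lower, with a median of 1.09 against 0.013 for all genes. Mmp2 rose by 3.6 ± 0.29 (limma adjusted p = 3.67e-05) and Mmp14 by 3.33 ± 0.35 (adjusted p = 0.000163). All 3 inhibitors rose, Timp1 by 1.18 ± 0.29 (adjusted p = 0.0126), Timp2 by 1.23 ± 0.26 (0.00658) and Timp3 by 1.09 ± 0.33 (0.0315). Mmp9, at -0.29 ± 0.22 (adjusted p = 0.333), was not called. Mmp3 differed by 0.92 ± 0.36, and by 1.49 without EpiSC replicate 1, a value that rests on EpiSC replicate 2 alone. Mmp10 and Mmp13 were under 4.24 on all EpiSC and ICM arrays.

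Mmp2 and Mmp14 were called in EpiSC against ICM under all alternatives, and the inhibitors were not. The Timp1 call was lost without EpiSC replicate 2 (0.97, limma adjusted p = 0.0932) or ICM replicate 1 (0.80, 0.0809), and over all alternatives its adjusted p lay between 0.00469 and 1. The Timp2 call was lost without ICM replicate 1 (1.06, adjusted p = 0.0506), and over all alternatives its p lay between 0.000157 and 1. The Timp3 call was lost without either ESC array, either EpiSC array or ICM replicate 2, with adjusted p of 0.0589 to 0.189 there and of 0.00273 to 1 over all its alternatives. All 3 were also lost under a test against a 2-fold change. The number of members called was 3 without EpiSC replicate 2 or ICM replicate 1. The summed fibroblast level was 125.6 and 132.1 in EpiSC, against 111.8 and 116.8 in ICM. Of 24 tested fibroblast markers 6 rose and 1 fell, beside 8.48% and 6.8% of all tested genes, with Col1a2 at 3.64 ± 0.23 (adjusted p = 1.1e-05). Fewer rose without EpiSC replicate 2 or ICM replicate 1. Their part in the MMP and TIMP levels was not tested.

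ESC differed from ICM in 2 of the 9, both higher, beside 5.82% of all tested genes called higher and 5.57% lower. Timp1 rose by 2.35 ± 0.29 (limma adjusted p = 0.000552), to 8.21 in ESC against 5.86 in ICM, and Mmp14 by 1.85 ± 0.35 (adjusted p = 0.00477), to 6.16 against 4.31. Neither group had feeder cells in culture, and the summed fibroblast level was 111.6 and 112.2 in ESC against 111.8 and 116.8 in ICM. Of 24 tested fibroblast markers 1 rose and 2 fell, beside 5.82% and 5.57% of all tested genes. These were Fstl1 at 2.69 ± 0.21, Ddr2 at -2.15 ± 0.38 and Thy1 at -1.21 ± 0.22. The part of fibroblast markers and feeders in the MMP and TIMP levels was not tested. The other 7 members were not called, with log2 fold changes of -0.14 for Timp3 to 0.56 for Mmp2. The median over the 9 was 0.22 against 0.025 for all genes. The Mmp14 call was lost under a test against a 2-fold change (adjusted p = 0.382, with a range of 2.4e-05 to 0.382), and the Timp1 call was kept under all alternatives.

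**Figure D4:**
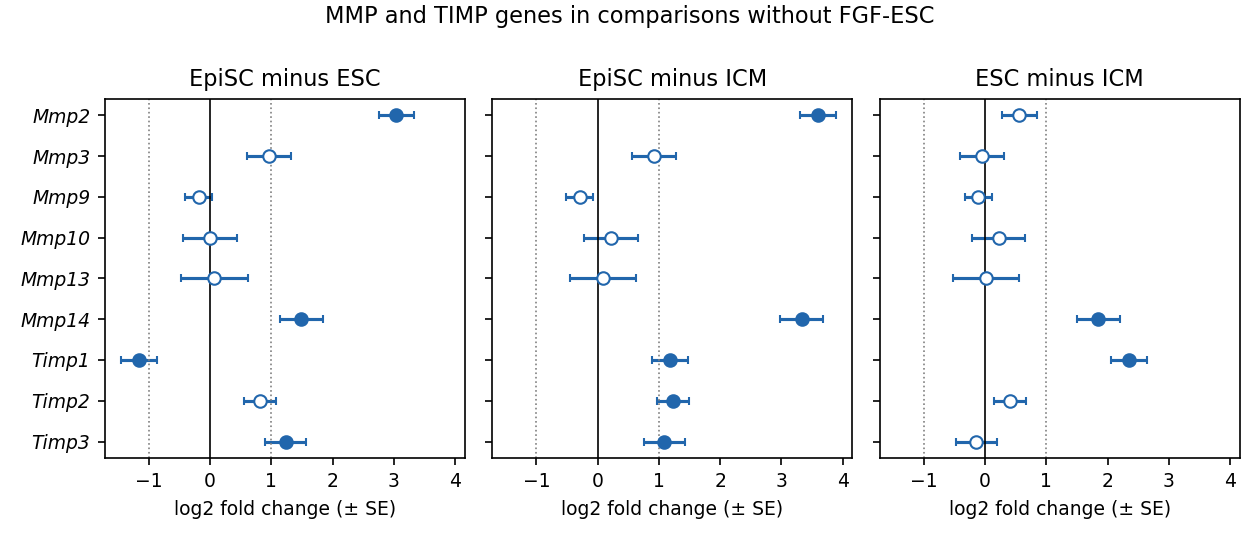
Log2 fold changes of the 9 genes in the 3 comparisons without FGF-ESC, with limma SEs as bars. Filled points were called (adjusted p below 0.05 and at least 1 on the log2 scale), open points were not, and dotted lines mark -1 and 1. Mmp2 and Mmp14 lie farthest to the right in both EpiSC panels, and Timp1 lies left of 0 against ESC and right of 0 against ICM.

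Of the 17 other MMP and TIMP genes with a probe set, 11 were tested and 6 were not. Their absence from the list of 9 was decided with the same data known, so their contrasts with FGF-ESC are also partly fixed by that choice. Mmp25, a membrane-anchored MMP known from leukocytes, was the clearest gene of EpiSC. It was at 4.54 and 4.34 in FGF-ESC, 6.40 and 6.55 in EpiSC, 4.33 and 4.37 in ESC, and 4.38 and 4.48 in ICM. It rose in EpiSC by 2.12 ± 0.13 against ESC (limma adjusted p = 2.94e-05) and by 2.04 ± 0.13 against ICM (9.57e-06), and FGF-ESC had -2.03 ± 0.13 against EpiSC (5.92e-05). Each of these calls held under all 20 alternatives. Mmp16, another membrane-type MMP, was higher in EpiSC by 1.29 ± 0.15 against ESC and by 1.37 ± 0.15 against ICM. The means of 3.13 in ESC and 3.05 in ICM were under 4.24. Mmp16 was at 4.37 and 4.47 in EpiSC and passed the filter on low values only through these arrays, so no p-value is given. Both calls were lost under a test against a 2-fold change. Timp4 was at 5.39 and 4.63 in EpiSC and at 4.03 to 4.38 on the 6 other arrays, with no call.

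Other MMP genes were highest in FGF-ESC. Mmp19, an MMP of connective tissue and skin, was at 7.25 and 5.90 in FGF-ESC, 3.88 and 4.05 in EpiSC, 3.87 and 3.89 in ESC, and 3.71 and 3.83 in ICM. It was higher in FGF-ESC by 2.61 ± 0.35 against EpiSC, 2.69 ± 0.35 against ESC and 2.81 ± 0.35 against ICM. Mmp19 passed the filter on low values only through the FGF-ESC arrays, so no p-value is given. Its call against ESC was lost under a test against a 2-fold change. Mmp23, a membrane MMP without a cysteine switch, was at 7.42 and 6.59 in FGF-ESC, 5.02 and 5.17 in EpiSC, 5.34 and 5.54 in ESC, and 5.15 and 4.96 in ICM. It was higher by 1.91 ± 0.24 (limma adjusted p = 0.00133), 1.56 ± 0.24 (0.00551) and 1.95 ± 0.24 (0.00048) against EpiSC, ESC and ICM. The calls of Mmp23 against EpiSC and ESC were lost under a test against a 2-fold change, and the call against ESC also without ESC replicate 1. Its difference from ESC ranged from 1.15 to 1.98 over the alternatives. Mmp11, stromelysin 3, was at 7.16 and 7.46 in FGF-ESC, 6.13 and 6.35 in EpiSC, 6.78 and 6.93 in ESC, and 5.52 and 5.59 in ICM, and on this gene FGF-ESC replicate 2 was the higher array. It rose by 1.75 ± 0.15 in FGF-ESC (adjusted p = 6.32e-05) and by 1.3 ± 0.15 in ESC (0.000364), both against ICM, and by 1.07 ± 0.15 in FGF-ESC against EpiSC (0.00194). The last of these calls was lost without FGF-ESC replicate 2 or EpiSC replicate 1, with differences of 0.92 to 1.22 over its alternatives. That call and the call in ESC against ICM were also lost under a test against a 2-fold change. Mmp12 passed only narrowly in FGF-ESC against ESC, at 1.01 ± 0.20. It too cleared the filter on low values only through FGF-ESC, so no p-value is given. Its call was lost without FGF-ESC replicate 1 or either ESC array. The same held in a fit of FGF-ESC and ESC alone and under a test against a 2-fold change. Without ESC replicate 1, where Mmp23 was lost too, the count for these genes was 1 in place of 3. The Mmp12 difference ranged from 0.71 to 1.32 over its alternatives.

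Of 6 tested inhibitors outside the TIMP family, 4 rose in FGF-ESC against ESC, beside 5.27% of all tested genes, with a median of 2.64. This list was chosen with earlier results of these data known, as were the protease, inducer, matrix and marker lists. Their counts beside the share of all tested genes are thus descriptions and no independent evidence of enrichment. The p-values of genes named from these lists carry the same limit. The thrombospondins Thbs1 and Thbs2, which bind MMPs and help clear them, rose by 4.37 ± 0.44 (limma adjusted p = 0.00079) and 4.15 ± 0.46. The protease inhibitor Tfpi2 rose by 2.67 ± 0.38, and Lrp1, a receptor that takes up MMP complexes, by 2.61 ± 0.44 (0.0076). Thbs2 and Tfpi2 passed the filter on low values only through FGF-ESC, so no p-value is given for them. The count was 2 without ESC replicate 1. ESC means were under 4.24 for Thbs1, Thbs2 and Tfpi2, so their differences are against near-background signal. Reck, a membrane-bound MMP inhibitor, was at 6.04 and 5.30 in FGF-ESC, 4.82 and 4.84 in EpiSC, 4.84 and 4.87 in ESC, and 3.78 and 4.43 in ICM. Against EpiSC 4 of the 6 rose and against ICM 5, beside 5.26% and 9.57% of all tested genes, and 0 fell.

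Plasminogen activation, which supplies the plasmin that opens MMP precursors, was represented by 5 tested genes, and 4 rose in FGF-ESC against ESC, beside 5.27% of all tested genes, with a median of 2.42. Anxa2 and S100a10, which form a surface receptor for plasminogen, rose by 3.05 ± 0.32 (limma adjusted p = 0.00092) and 1.09 ± 0.17 (0.00549). The activators Plat and Plau rose by 2.42 ± 0.39 (0.00634) and 3.0 ± 0.49 (0.00688). This count was 2 without ESC replicate 1 or ESC replicate 2. Plau was at 8.91 and 6.99 in FGF-ESC, 4.83 and 5.08 in EpiSC, 4.88 and 5.03 in ESC, and 6.44 and 6.42 in ICM. Plg, plasminogen itself, was at 3.14 to 3.56 on all 8 arrays and was not tested. The 6 tested proprotein convertases, the furin family that opens membrane-type MMPs, had a median of 0.07 against ESC. Among them Pcsk6 had log2 differences of -1.26 ± 0.14 in EpiSC against ESC (0.000518), of -1.98 ± 0.14 in EpiSC against ICM (1.84e-05) and of -1.51 ± 0.14 in FGF-ESC against ICM (0.000106).

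Other matrix proteases rose in part. Of 17 tested ADAM and ADAMTS genes 5 rose in FGF-ESC against ESC and 0 fell, beside 5.27% and 0.934% of all tested genes, with a median of 0.66, among them Adamts14, a procollagen-processing protease, at 2.63 ± 0.34 (limma adjusted p = 0.0024). The count was 1 without FGF-ESC replicate 1, ESC replicate 1 or ESC replicate 2 and 8 without FGF-ESC replicate 2. Adam23, a surface protein with no protease activity, rose by 1.04 ± 0.17 (0.00698) against ESC and by 2.44 ± 0.17 (8.93e-05) against EpiSC. Of 12 cathepsins and cystatins 4 rose against ESC, beside the same 5.27%, with a median of 0.75, and 2 did without FGF-ESC replicate 1, ESC replicate 1 or ESC replicate 2. Ctsl rose by 1.27 ± 0.12 (0.000653) and Ctsk, the collagen-cutting cathepsin of osteoclasts, by 4.45 ± 0.45, against a near-background ESC mean of 3.32. Ctsk passed the filter on low values only through FGF-ESC, so no p-value is given for it. Ctsc, a lysosomal protease, went the other way against ICM, with -3.25 ± 0.32 in FGF-ESC (0.000139), -3.98 ± 0.32 in EpiSC (3.56e-05) and -2.77 ± 0.32 in ESC (0.000386).

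Genes known to induce MMPs, or to carry the inducing signal, rose in FGF-ESC against ESC for 8 of 17 tested, and 0 fell, beside 5.27% and 0.934% of all tested genes, with a median of 0.98. Il1r1, the receptor through which interleukin 1 induces MMPs in fibroblasts, was at 8.12 and 7.50 in FGF-ESC, 4.30 and 4.29 in EpiSC, 4.02 and 3.99 in ESC, and 4.44 and 4.15 in ICM. It rose by 3.8 ± 0.20 (limma adjusted p = 3.43e-05). The AP-1 genes Fos and Fosb rose by 2.36 ± 0.23 (0.000711) and 3.53 ± 0.44 (0.00198). Cd44, a hyaluronan receptor that can hold MMPs at the surface, rose by 2.76 ± 0.39. It passed the filter on low values only through FGF-ESC, so no p-value is given for it. ESC means of Il1r1, Fosb and Cd44 were under 4.24. Against EpiSC 8 of 17 rose and against ICM 11, beside 5.26% and 9.57% of all tested genes. The count was 4 against ESC without ESC replicate 1, 4 against EpiSC without FGF-ESC replicate 1 or EpiSC replicate 1, and 7 against ICM without FGF-ESC replicate 1. Bsg, a surface inducer of MMPs also called EMMPRIN, was at 9.73 and 9.68 in FGF-ESC, 9.22 and 9.45 in EpiSC, 9.56 and 9.55 in ESC, and 9.37 and 9.75 in ICM, so that ICM overlapped each other group and the cultured groups did not overlap.

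Among 19 tested matrix proteins that MMPs cut, 9 rose and 1 fell in FGF-ESC against ESC, beside 5.27% and 0.934% of all tested genes, with a median of 1.04, and 6 rose without ESC replicate 1 or ESC replicate 2. Without FGF-ESC replicate 1 the median was 0.46. Col1a2 rose by 6.72 ± 0.23 (limma adjusted p = 5.43e-06), the proteoglycans Dcn and Bgn by 6.66 ± 0.32 (2.6e-05) and 4.27 ± 0.26 (6.84e-05), and tenascin, Tnc, by 5.58 ± 0.51 (0.000499). The ESC means of Col1a2, Dcn and Tnc, at 3.33, 3.11 and 3.59, were under 4.24, so the size of these differences is set against near-background signal. In EpiSC against ESC 4 rose and 4 fell, beside 3.86% and 3.5% of all tested genes. Those that fell included Lama1 at -2.11 ± 0.14 (4.18e-05), fibronectin, Fn1, at -2.0 ± 0.20 (0.000309) and Lamc1 at -1.32 ± 0.13 (0.000321). Some of these genes, Col1a2 and Dcn among them, are also on the fibroblast list.

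The genes most like each member were found by Pearson correlation over the 8 arrays, among 3426 genes whose group means spanned at least 1. The arrays form 4 groups, so these values describe shared steps between groups and are given with no test. Mmp3 was most like Lum, Postn and Ccl8 (r = 0.997, 0.997 and 0.996), Timp2 most like Ccl7, Loxl3 and H2-Q10 (0.996, 0.995 and 0.995), where H2-Q10 belongs to a family of near-identical copies and is uncertain. Mmp10 was most like Ctla2a, Mmp19 and Vegfd (0.998, 0.997 and 0.997), and Mmp13 most like Osmr, Col5a2 and Sgcd (0.999, 0.998 and 0.998). Mmp2, with its step in EpiSC, was most like Egr1, Ccnd2 and Emp3 (0.993, 0.991 and 0.990). Egr1 had means of 9.72 in FGF-ESC, 8.77 in EpiSC, 6.44 in ESC and 6.06 in ICM. Mmp14 was most like Spry4, Mbnl1 and Rcn3 (0.994, 0.993 and 0.989) and Timp1 most like Fermt2, Fkbp9 and Serping1 (0.991, 0.986 and 0.983). Timp3 was most like Irf2, Oasl1 and Epb41l3 (0.995, 0.988 and 0.981) and Mmp9 most like Dock4, Frmd6 and Nrn1 (0.979, 0.979 and 0.973). Among the members, Mmp2 correlated at 0.94 with Mmp14 and 0.96 with Timp3, but at 0.54 with Mmp9, and Mmp3 at 0.99 with Timp2.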

How the data were processed

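Total RNA was amplified and biotin-labelled for the arrays, per the labels' protocols. The authors deposited 1 log2 value per probe set and array, and the submitters' processing notes name Expression Console 1.3.1. The summarisation algorithm is not given in the sources used. That the values are log2 was read from their range. Array medians were 4.16 to 4.28. No further normalization was applied.

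Of 41345 probe sets, 23521 had 1 gene symbol in the platform annotation, 1814 several and 16010 none, and 23328 of the single symbols matched RefSeq. The probe set with the highest mean stood for a gene. A gene was tested if it exceeded 4.24, the overall median, on 2 or more arrays (13597 of 22180 genes). A means model of the 4 groups was fitted to all 8 arrays with limma 3.58.1 in R 4.3.3 (lmFit, eBayes defaults, 4 residual degrees of freedom), with Benjamini-Hochberg adjustment over all tested genes within each of 6 comparisons. SEs pool the spread of all groups. Since nothing shows separate cultures or animals, p-values reflect array-to-array spread alone, possibly technical, and the number of arrays limits the precision.

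In simulated data for EpiSC against ESC over 13597 genes, 43 of 50 genes changed by 1.5 and 50 of 50 changed by 3 on the log2 scale were recovered. Unchanged genes gave 3 false calls. The simulation used the same variance in every group, whereas the residual standard deviation was 0.279 in FGF-ESC, 0.151 in EpiSC, 0.124 in ESC and 0.208 in ICM. It therefore cannot show how the calls fare with unequal spread. The members and lists were chosen with earlier results of these data known, so list counts describe the lists and do not test enrichment. Named genes were all 9 members, other MMP or TIMP genes where called, up to 4 called genes with the smallest adjusted p of each list, and the 3 genes most like each member. The levels shown of Reck, Plg, Bsg, Ptprc, Cd68, Timp4 and Plau were chosen after their values were seen. Alternatives concerned the probe set, filter, normalization, fit, fold minimum, replicate numbers and each array left out.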

Additional observations from a re-analysis of the deposited data

How the results depend on the processing

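The direction of every member called was kept under all alternatives. Without a fold minimum 2087, 2692 and 4984 genes passed in FGF-ESC against ESC, EpiSC and ICM, and 2584, 5219 and 4488 in EpiSC against ESC, EpiSC against ICM and ESC against ICM, in place of 844, 990, 2011, 1001, 2078 and 1548. Tested against a 2-fold change, 167, 238, 724, 307, 862 and 466 passed in that order. The members called were then 3 in FGF-ESC against ESC, 1 in EpiSC against ESC, 2 in EpiSC against ICM and 1 in ESC against ICM, in place of 8, 4, 5 and 2. A fit of FGF-ESC and ESC alone passed 526 genes. Leaving out each array gave 374 to 1287 genes in FGF-ESC against ESC, 747 to 1287 against EpiSC and 1822 to 2270 against ICM, and 848 to 1032 in EpiSC against ESC, 2009 to 2099 in EpiSC against ICM and 1410 to 1584 in ESC against ICM. Members called were then 6 to 9, 6 to 9 and 8 to 8 for FGF-ESC against ESC, EpiSC and ICM, and 1 to 4, 3 to 5 and 2 to 2 for the other comparisons in the same order. A group left with 1 array is assumed to vary like the others. Replicate numbers did not pair the arrays (correlations of deviations between -0.0864 and 0.0421), and with the replicate block 828, 974, 2011, 998, 2071 and 1545 genes and 8, 7, 8, 4, 5 and 2 members were called. Member counts against FGF-ESC describe how the genes were chosen and show no stability. Signal near background limits Mmp10, Mmp13 and Mmp3 outside FGF-ESC, and in ESC also Col1a2, Dcn, Tnc, Ctsk, Thbs1, Thbs2, Tfpi2, Il1r1, Fosb and Cd44.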
